A study of Drosophila melanogaster with 4 samples.

Results

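Sugar metabolism and the response to starvation were followed through 9 genes in the heads of male Drosophila melanogaster that had eaten pilocarpine, an agonist of muscarinic acetylcholine receptors. The genes were taken by name: Hex-C, Ald1 and Tpi of glycolysis, Mdh1 and Idh3a of malate and isocitrate oxidation, Adh and Miox of alcohol and inositol oxidation, and the transcription factor genes sug and foxo. All 9 had a value, out of 1449 named genes with one. Of the 9, 6 were measured on all 4 arrays and 3 on 3 arrays, so all were among the 1444 genes measured on at least 3 arrays and tested.

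Unmated Oregon-R wild-type males, 3 to 4 days old at the start, were kept for 7 days on food with 1.5 mg/ml pilocarpine, and their controls on normal food without the drug, 30 flies to a vial. The food of both groups held brown sugar, maize and yeast, and all flies had been anaesthetised with diethyl ether when the sexes were parted. The 8 pools of heads, each from 4 vials, formed 4 parallel sets. On each two-colour cDNA array the treated pool of a set was hybridised with its untreated pool. The treated RNA was in Cy5, the red dye, on replicates 1 and 2 and in Cy3, the green dye, on replicates 3 and 4. A pool of whole heads mixes brain, eye, fat body, muscle and cuticle, so that fewer cells of a type and less RNA per cell cannot be told apart. The arrays give a ratio and no level, so the label of the tissue could not be checked by levels. Of the photoreceptor and neuron markers with a probe, 4 of 10 had values on at least 3 arrays. All 4 (Arr1, trpl, inaD and inaC) are photoreceptor genes. The counts were 8 of 14 for fat body, 7 of 10 for muscle, 3 of 12 for gut and 2 of 7 for glia. Over the whole array, with 27648 spots at 2 per probe, 3216 probes had values on at least 3 arrays. Such shares are not levels and do not identify a tissue.

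In flies, trehalose made by the fat body circulates in the haemolymph and is cleaved to glucose, which glycolysis turns into pyruvate for the mitochondria. Insulin signalling holds the forkhead factor foxo out of the nucleus in fed animals, and starvation releases it. The zinc-finger factor gene sug (sugarbabe) is known in larvae as a gene induced by dietary sugar.

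The labels do not say which channel is on top of the deposited ratio, so every value stands in 2 readings. In the red-over-green reading, the default of the scanner's software, the ratios of replicates 3 and 4 are turned in sign to give pilocarpine over normal food. In the treated-over-untreated reading all 4 arrays are taken as deposited. The ratios of replicates 1 and 2 are the same in both. A further possibility, green over red, would give the first reading with every sign exchanged. Sizes, and comparisons between arrays of 1 dye orientation, hold in all of them. Each array was centred by subtracting its median over all probes, which was -0.14, -0.48, -0.29 and -0.42 for replicates 1 to 4, so a value of 0 means the typical ratio of that array. The arrays held 6257, 4428, 6392 and 5527 spots with a value. Over genes, which are not independent replicates, the deposited ratios correlated at r = -0.05 between replicates 1 and 2, at 0.40 between replicates 3 and 4, and between -0.40 and 0.24 across the 2 orientations.

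None of the 9 genes passed the test in either reading (Benjamini-Hochberg adjusted p of limma between 0.292 and 0.98 in the red-over-green reading and between 0.56 and 0.96 in the other). Over all 1444 genes 2 passed in the red-over-green reading, 0.139%, and none passed in the treated-over-untreated reading, 0%. At an unadjusted limma p under 0.05 there were 3 of the 9 genes and 107 of all genes (7.41%) in the red-over-green reading, and 1 of the 9 and 126 of all (8.73%) in the other. The unadjusted 95% limma intervals that excluded 0 were those of Miox, Adh and Mdh1 in the first reading and of Ald1 in the second. Those of Adh (lower end 0.0023), Mdh1 (lower end 0.0034) and Ald1 (upper end -0.0017) ended close to 0. In the first reading the exact sign-flip test over the 4 arrays gave p = 0.25 for Adh and p = 0.125 for Miox and Mdh1. For Ald1 in the second reading the exact sign-flip test over the 4 arrays gave p = 0.25. Adh and Ald1 each had 1 array on the other side of 0. Without centring, the median of all genes was -0.31 in the treated-over-untreated reading, 237 genes passed, all of them lower, and Ald1, Adh and foxo were among them, at -0.76, -0.71 and -0.64. The limma p-values rest on the spread of a gene between its 3 or 4 pairs of pools, drawn by limma toward the spread of all genes.

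The deposited ratios spread widely from array to array. On replicate 1 the 9 genes lay close to the array median, between -0.24 for foxo and 0.28 for Hex-C. On replicate 2 the 7 genes measured ran from -0.67 for Idh3a to 1.13 for Miox, with 5 above the median. On replicate 3 they ran from -0.94 for sug to 0.37 for Idh3a. On replicate 4 all 8 genes measured lay below the array median, from -1.66 for Adh to -0.09 for Idh3a. The median of the genes measured was -0.09, 0.32, -0.40 and -0.61 on replicates 1 to 4, with 3 of 9, 5 of 7, 3 of 9 and 0 of 8 genes above the array median. Over all genes the median size of the centred ratio was 0.18, 0.25, 0.27 and 0.24. Of the other genes of the same pathways, 11 of 18, 4 of 10, 8 of 18 and 12 of 17 lay below the median on replicates 1 to 4. Their medians were -0.06, 0.09, 0.05 and -0.19.

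**Figure D1:**
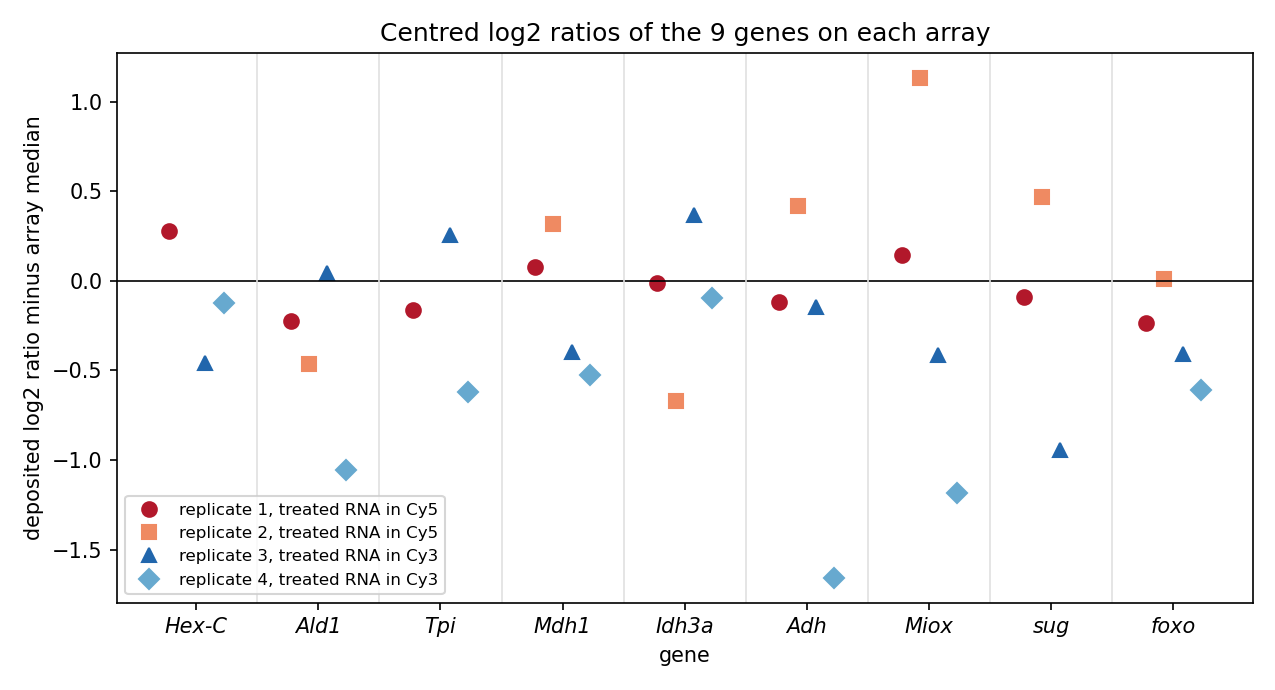
Deposited log2 ratio minus the array median (vertical axis) for each of the 9 genes (horizontal axis), 1 point an array, red for the arrays with the treated RNA in Cy5 and blue for those with it in Cy3; no array is turned. All 8 points of replicate 4 lie below 0, and Miox has the widest range, from -1.19 on replicate 4 to 1.13 on replicate 2.

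Each gene rests on 1 probe, spotted in duplicate. The arrays carry 13 probes for the 9 genes, and 9 of them had values; Hex-C, Ald1, Tpi and Adh each have another probe without one. Over 33 pairs of duplicate spots the median difference within an array was 0.15 and the largest, of sug on replicate 1, was 0.50 on the log2 scale. Between arrays the centred ratios as deposited ranged over 0.62 (foxo) to 2.32 (Miox). In each case this was wider than the largest difference between the gene's own duplicate spots. These ranges include any change of sign between the dye orientations. With replicates 3 and 4 turned, Hex-C was at 0.28, 0.46 and 0.12 on replicates 1, 3 and 4. That is a narrower range than the 0.39 between its spots on replicate 1.

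Of the glycolytic genes, Hex-C encodes a hexokinase, which phosphorylates glucose at the entry of the pathway. Its centred ratios as deposited were 0.28, -0.46 and -0.12 on replicates 1, 3 and 4; replicate 2 had none and does not enter its mean. With replicates 3 and 4 turned it was above 0 on each of the 3 arrays, as 10.2% of the 696 genes on 3 arrays were. The mean in the red-over-green reading was 0.29 ± 0.17 (SD, n = 3; limma adjusted p = 0.83) with a 95% interval of -0.10 to 0.67. Unturned, it was -0.10 ± 0.37 (SD, n = 3; limma adjusted p = 0.919). Its duplicate spots differed by 0.39 on replicate 1, 0.29 on replicate 3 and 0.38 on replicate 4, so on replicates 1 and 4 the spots were further apart than their mean was from the array median.

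Ald1 encodes the aldolase that splits fructose bisphosphate into 2 triose phosphates. Its centred ratios as deposited were -0.22, -0.47, 0.04 and -1.05 on replicates 1 to 4, with replicate 4 the lowest. There it was the 22nd lowest of 1245 genes, with duplicate spots only 0.06 apart. The red-over-green mean was 0.08 ± 0.67 (SD, n = 4; limma adjusted p = 0.974). The treated-over-untreated mean was -0.42 ± 0.47 (SD, n = 4; limma adjusted p = 0.56), with an interval of -0.85 to -0.00, and 4.78% of genes were lower. Without replicate 4 the means were -0.24 and -0.21 in these readings (n = 3), the first of the opposite sign and the second closer to 0.

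Tpi encodes triosephosphate isomerase, which interconverts the products of aldolase. Its centred ratios as deposited were -0.16, 0.26 and -0.62 on replicates 1, 3 and 4, with no value on replicate 2. The order of the 3 arrays was that of Ald1, replicate 3 highest and replicate 4 lowest. The mean was 0.07 ± 0.48 in the red-over-green reading (SD, n = 3; limma adjusted p = 0.98), whereas the treated-over-untreated mean was -0.18 ± 0.44 (SD, n = 3; limma adjusted p = 0.848). Without replicate 4 these were -0.21 and 0.05 over 2 arrays, both of the opposite sign. On replicates 1, 3 and 4, Ald1 was lower than Tpi by 0.06, 0.21 and 0.43 as deposited, so 2 neighbouring steps of glycolysis differed less on replicate 1 than on replicate 4.

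Among the enzymes of malate and isocitrate oxidation, Mdh1 encodes the cytosolic malate dehydrogenase, which interconverts malate and oxaloacetate. Its centred ratios as deposited were 0.08, 0.32, -0.40 and -0.53 on replicates 1 to 4. The arrays of 1 dye orientation lay close together, 0.24 apart on replicates 1 and 2 and 0.13 on replicates 3 and 4, and the 2 orientations had opposite signs. In the red-over-green reading it was therefore above 0 on all 4 arrays, at a mean of 0.33 ± 0.19 (SD, n = 4; limma adjusted p = 0.666). This SD was the lowest of the 6 genes on all 4 arrays in that reading. Leaving out each array in turn gave means between 0.26 and 0.41. Unturned, the mean was -0.13 ± 0.40 (SD, n = 4; limma adjusted p = 0.871), and it lay between -0.28 and -0.00 with 1 array left out.

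Idh3a encodes the catalytic alpha subunit of the mitochondrial isocitrate dehydrogenase that uses NAD. Its centred ratios as deposited were -0.01, -0.67, 0.37 and -0.09 on replicates 1 to 4. Replicate 2 was the low array, where Idh3a was the 36th lowest of 969 genes, and replicates 1 and 4 were near the median. It was the only one of the 9 genes with a negative mean in both readings, -0.24 ± 0.35 in the red-over-green reading (SD, n = 4; limma adjusted p = 0.881), whereas the treated-over-untreated mean was -0.10 ± 0.43 (SD, n = 4; limma adjusted p = 0.911). Without replicate 2 the means were -0.10 and 0.09 in these readings (n = 3), so that only the first stayed negative.

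Miox encodes myo-inositol oxygenase, which opens the ring of inositol to glucuronate in the first step of its breakdown. Its deposited ratios before centring were 0.01, 0.65, -0.70 and -1.61 on replicates 1 to 4. Centred they were 0.14, 1.13, -0.41 and -1.19, with no more than 0.20 between duplicate spots on any array. On replicate 2 it was the 13th highest of 969 genes and on replicate 4 the 16th lowest of 1245. The sign followed the dye orientation, above the median with the treated RNA in Cy5 and below it with the treated RNA in Cy3.

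With replicates 3 and 4 turned, Miox was above 0 on all 4 arrays. Its mean was the highest of the 9 genes, 0.72 ± 0.52 (SD, n = 4; limma adjusted p = 0.292), a 1.65-fold ratio with a 95% interval of 1.23- to 2.20-fold before adjustment over genes. The exact sign-flip test over the 4 arrays gave p = 0.125, the smallest that 4 arrays allow. Without replicate 3 the mean was 0.82 and passed (n = 3; limma adjusted p = 0.00942), in a fit in which limma pooled the spread of all genes and 18 of 1444 genes passed. In the treated-over-untreated reading the 2 orientations cancelled, at -0.08 ± 0.98 (SD, n = 4; limma adjusted p = 0.96), and the mean was 0.03 without replicate 3 and 0.29 without replicate 4.

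Adh encodes the alcohol dehydrogenase that lets flies oxidise the ethanol of fermenting fruit. Its centred ratios as deposited were -0.12, 0.42, -0.15 and -1.66 on replicates 1 to 4. Replicate 4 was the lowest, and there Adh was the 7th lowest of 1245 genes. Its duplicate spots on that array were 0.35 apart around a value before centring of -2.08. The mean in the red-over-green reading was 0.53 ± 0.78 (SD, n = 4; limma adjusted p = 0.666), above 0 on 3 of 4 arrays. Without replicate 4 it was 0.15 (n = 3). The treated-over-untreated mean was -0.38 ± 0.89 (SD, n = 4; limma adjusted p = 0.733), and 0.05 without replicate 4.

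Of the transcription factor genes, sug had centred ratios as deposited of -0.09, 0.47 and -0.94 on replicates 1, 2 and 3, and no value on replicate 4. On replicate 3 it was the 45th lowest of 1444 genes, with duplicate spots 0.04 apart, while on replicate 1 its spots differed by 0.50. The mean was 0.44 ± 0.52 in the red-over-green reading (SD, n = 3; limma adjusted p = 0.731), whereas the treated-over-untreated mean was -0.19 ± 0.71 (SD, n = 3; limma adjusted p = 0.875). Replicate 3 carried most of both: without it the mean over replicates 1 and 2 was 0.19, the same in both readings since neither array is turned.

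For foxo the centred ratios as deposited were -0.24, 0.01, -0.41 and -0.61 on replicates 1 to 4, below the median on 3 arrays and level with it on replicate 2. Its range as deposited, 0.62, was the narrowest of the 9 genes. With replicates 3 and 4 turned this did not hold: foxo ran from -0.24 to 0.61 and Hex-C from 0.12 to 0.46. The mean was 0.20 ± 0.38 in the red-over-green reading (SD, n = 4; limma adjusted p = 0.914), whereas the treated-over-untreated mean was -0.31 ± 0.26 (SD, n = 4; limma adjusted p = 0.587), with a 95% interval of -0.64 to 0.02. Without replicate 4 the red-over-green mean was 0.06 (n = 3).

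**Figure D2:**
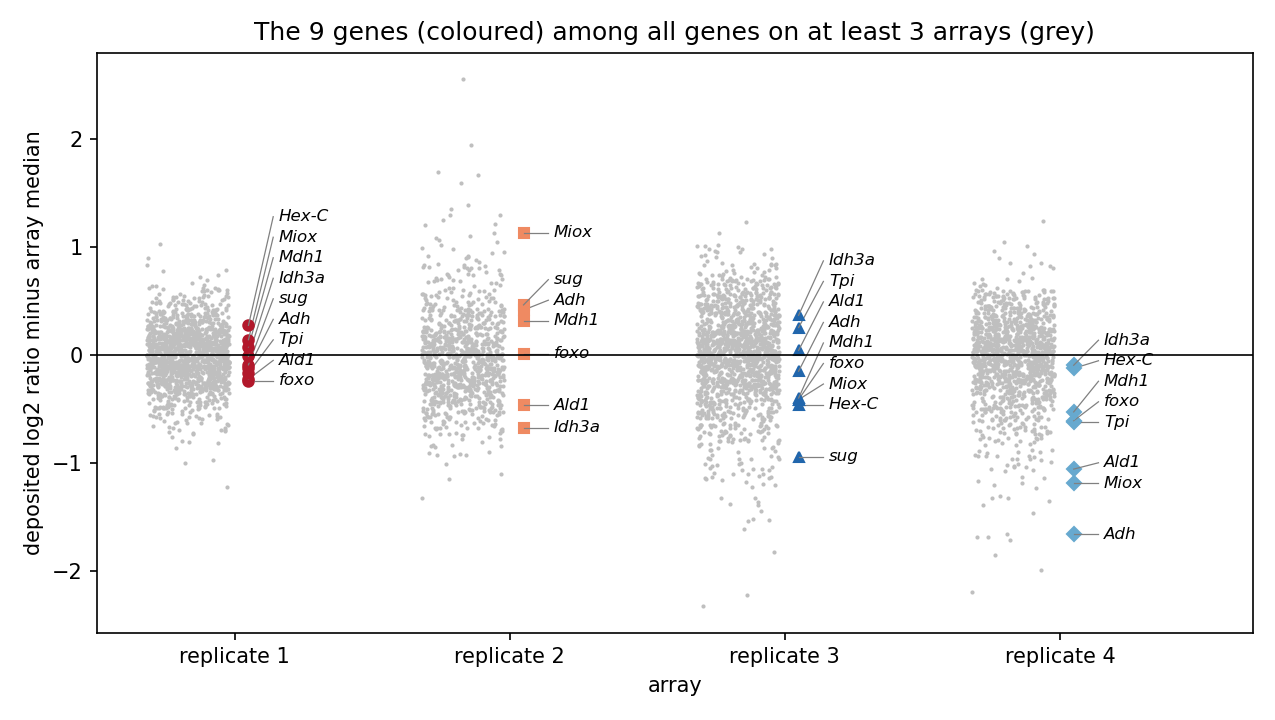
Deposited log2 ratio minus the array median (vertical axis) on each array (horizontal axis), with all genes on at least 3 arrays in grey, spread sideways at random, and the 9 genes in colour with their names. Miox (1.13) lies above most genes of replicate 2 but well below the highest. On replicate 3 sug (-0.94), and on replicate 4 Adh (-1.66), Miox (-1.19) and Ald1 (-1.05), lie below most genes but above the lowest, at -2.32 and -2.19.

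The size of the ratios can be compared without a direction, by the root mean square of the centred values over the arrays of a gene. It was 0.86 for Adh and 0.85 for Miox, exceeded by 1.45% and 1.66% of the 1444 genes. For sug it was 0.61 and for Ald1 0.59, exceeded by 7.55% and 8.45% of genes. The other 5 genes lay between 0.32 for Hex-C and 0.40 for Tpi. All 9 were above the median over genes of 0.30. The large sizes of Adh and Ald1 came mainly from replicate 4 and that of sug from replicate 3, whereas for Miox both replicate 2 and replicate 4 contributed.

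The 2 dye orientations separate the 6 genes measured on all 4 arrays. Miox averaged 0.64 on replicates 1 and 2 and -0.80 on replicates 3 and 4, and Mdh1 0.20 and -0.46. Adh was at 0.15 and -0.90, and Idh3a, the other way round, at -0.34 and 0.14. Ald1 and foxo had the same sign in both orientations, Ald1 at -0.34 and -0.51 and foxo at -0.11 and -0.51. Miox had the highest mean of the 9 genes in the red-over-green reading and one near 0 in the other. The lowest treated-over-untreated means were those of Ald1 (-0.42), Adh (-0.38) and foxo (-0.31), which differed by less than their SDs. In the red-over-green reading Mdh1 and Miox were above 0 on all 4 arrays, 2 of the 6 genes, where 7.35% of the 748 genes on all 4 arrays were. Taken as deposited, none of the 6 was below 0 on all 4 arrays and none of the other 3 on all of theirs. Of all genes on 4 and on 3 arrays, 9.09% and 16.4% were. Because the genes were chosen with earlier results of these data known, these counts are a description only.

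**Figure D3:**
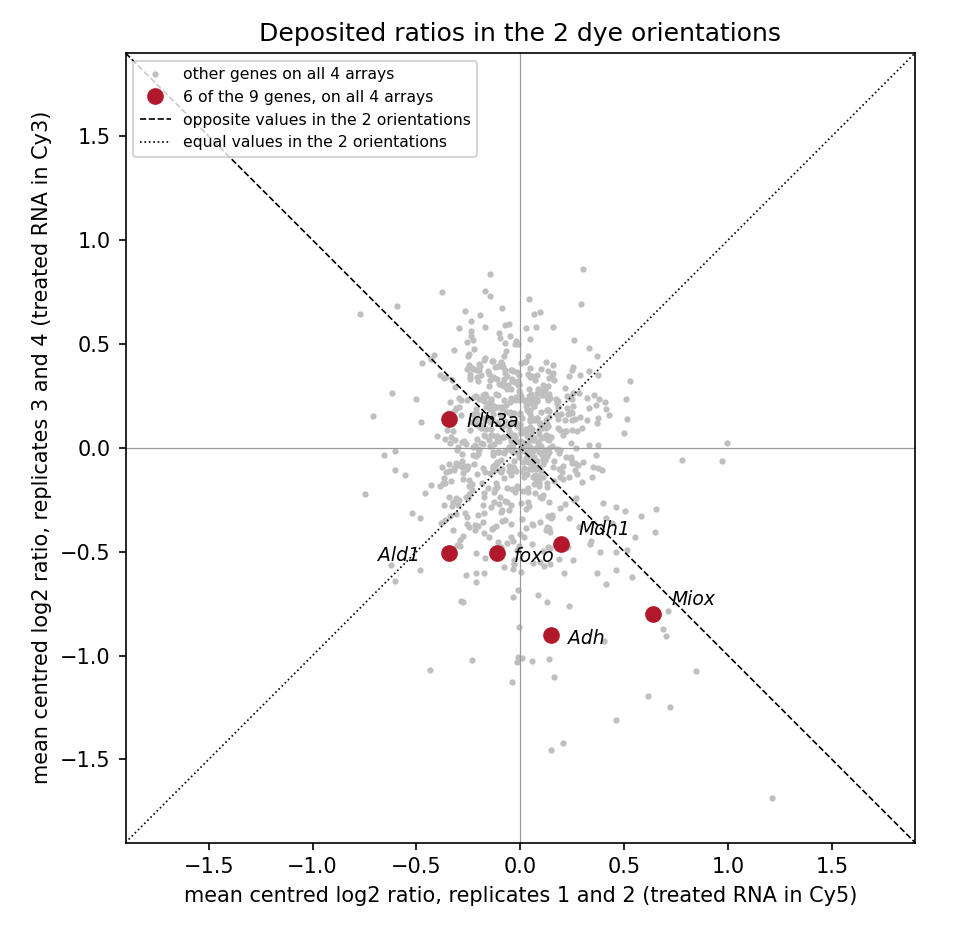
Mean centred log2 ratio of replicates 1 and 2 (horizontal axis) against that of replicates 3 and 4 (vertical axis), as deposited, for the 748 genes measured on all 4 arrays, with 6 of the 9 genes in red. Miox lies near the dashed line of opposite values, at 0.64 and -0.80, and Ald1 near the dotted line of equal values, at -0.34 and -0.51.

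Ordered by the red-over-green mean, the genes ran Miox, Adh, sug, Mdh1, Hex-C, foxo, Ald1, Tpi and Idh3a, from 0.72 to -0.24, and each neighbour in that order lay within the interval of the next. The ends of the order were set apart on every array: turned, Idh3a was below Miox by 0.15, 1.80, 0.78 and 1.09 on replicates 1 to 4, a mean difference of -0.96 ± 0.69 (SD, n = 4) given as a description, since the pair was picked for its distance. Unturned, the same pair differed by -0.02 ± 1.30 (SD, n = 4). The median of the 9 means was 0.29 in the red-over-green reading, with 8 positive, against -0.01 over all genes, of which 48.5% were positive. In the treated-over-untreated reading it was -0.18 with none positive, against 0.00 over all genes, of which 50.1% were positive. Thus 8 of the 9 genes had opposite signs in the 2 readings, as did 64.7% of all genes. The 9 genes were chosen with earlier results of these data known and share the same arrays, so these counts are a description and no test.

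**Figure D4:**
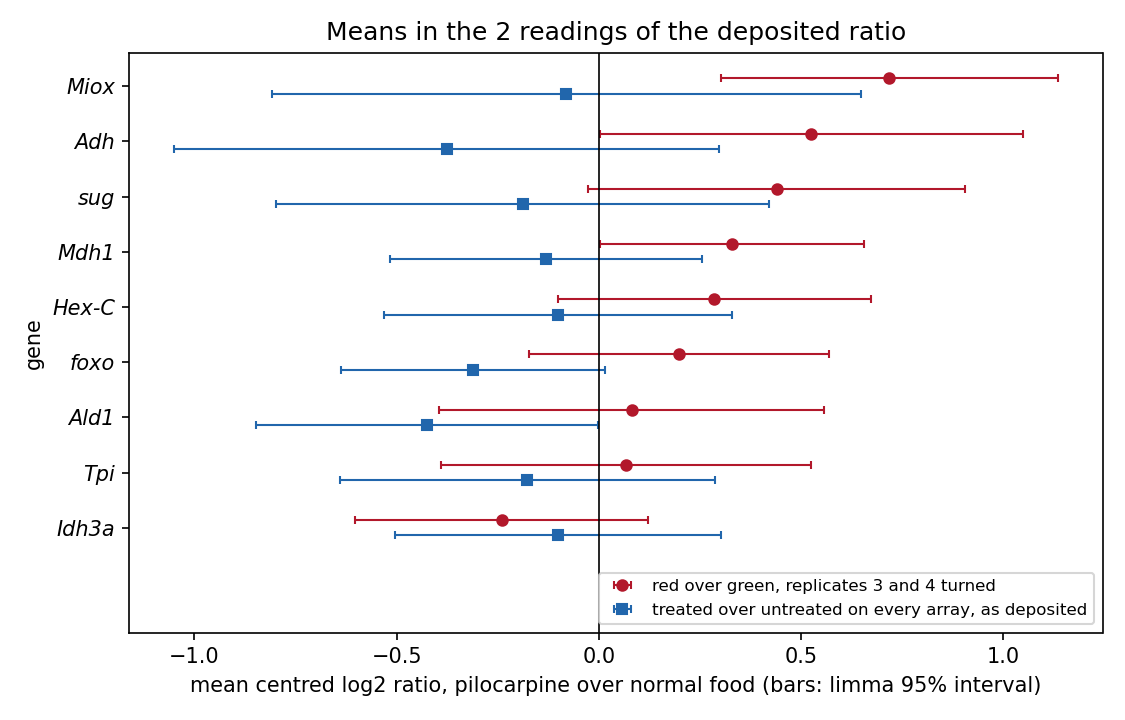
Mean centred log2 ratio of pilocarpine over normal food (horizontal axis, bars: 95% interval of limma, not adjusted over genes) for the 9 genes (vertical axis), with the red-over-green reading as red circles and the treated-over-untreated reading as blue squares. Red lies right of 0 for 8 genes and blue left of 0 for all 9.

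Pathway lists placed the 9 genes among 18 other measured genes. None of the 18 passed in either reading (limma, lowest adjusted p = 0.632 and 0.56). Their median was 0.05 with 11 positive in the red-over-green reading, and -0.03 with 7 positive in the other. At an unadjusted limma p under 0.05 there were 2 of 18 in each reading, beside 7.41% and 8.73% of all genes.

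In glycolysis and gluconeogenesis 7 of 15 genes with a probe were measured, with a median of 0.05 in the red-over-green reading and -0.15 in the treated-over-untreated reading. Another hexokinase gene, Hex-A, had the lowest red-over-green mean of the list, -0.23 ± 0.13 (SD, n = 3, limma adjusted p = 0.912). That mean came from centred ratios as deposited of -0.23, 0.36 and 0.11 on replicates 1, 3 and 4. On each of these 3 arrays its sign was the opposite of that of Hex-C. Pgk, phosphoglycerate kinase, was the highest apart from the 3 chosen genes, at 0.05 ± 0.21 (SD, n = 3; limma adjusted p = 0.986).

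In the tricarboxylic acid cycle and its feeder steps 5 of 20 genes with a probe were measured, with medians of -0.02 and -0.10 in the 2 readings. This list counts Mdh1, although its enzyme is the cytosolic one, and Mdh1 had the list's highest red-over-green mean, 0.33. Beside Mdh1 and Idh3a, the mitochondrial pyruvate carrier gene Mpc1 was at 0.18 ± 0.46 and CG5214 at -0.08 ± 0.04 in the red-over-green reading (SD, n = 3 for each; limma adjusted p = 0.937 and 0.969). Taldo, transaldolase, was the only measured gene of the pentose phosphate pathway, at 0.25 ± 0.59 (SD, n = 3; limma adjusted p = 0.914). Its lowest centred ratio as deposited was on replicate 4, at -0.93, as was that of Ald1, Tpi, Mdh1, Adh, Miox and foxo.

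Among the 6 measured of 21 genes of trehalose, glycogen and sugar uptake with a probe, the medians were 0.09 and 0.12 in the 2 readings. UGP, which makes the UDP-glucose used for glycogen and trehalose, was highest at 0.40 ± 0.46 (SD, n = 4; limma adjusted p = 0.657) and the maltase gene Mal-A2 lowest at -0.26 ± 0.73 (SD, n = 4; limma adjusted p = 0.914) in the red-over-green reading. The centred ratios of UGP as deposited were 0.09, 0.91, 0.06 and -0.66 on replicates 1 to 4.

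The list of alcohol, aldehyde and polyol metabolism held Miox, Adh and 1 other measured gene, AcCoAS, the acetyl-CoA synthase that uses acetate. AcCoAS was at 0.14, 0.75, -0.06 and -0.67 as deposited and centred, and at 0.40 ± 0.35 in the red-over-green reading (SD, n = 4; limma adjusted p = 0.632) against 0.04 ± 0.58 in the other (SD, n = 4; limma adjusted p = 0.972). All 3 genes of this list were above the median on replicate 2 and below it on replicates 3 and 4.

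Of starvation, insulin and energy sensing 5 of 21 genes with a probe were measured, with medians of 0.14 and -0.06 in the 2 readings. Beside sug and foxo, the deacetylase gene Sirt1 was at 0.14 ± 0.04 (SD, n = 3; limma adjusted p = 0.939) and S6k, the kinase below Tor, at -0.07 ± 0.25 (SD, n = 4; limma adjusted p = 0.969) in the red-over-green reading. Hnf4, which encodes a nuclear receptor that promotes the use of stored lipid in starvation, was at 0.04 ± 0.12 (SD, n = 4; limma adjusted p = 0.986). The medians of all genes in the 2 readings were -0.01 and 0.00.

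**Figure D5:**
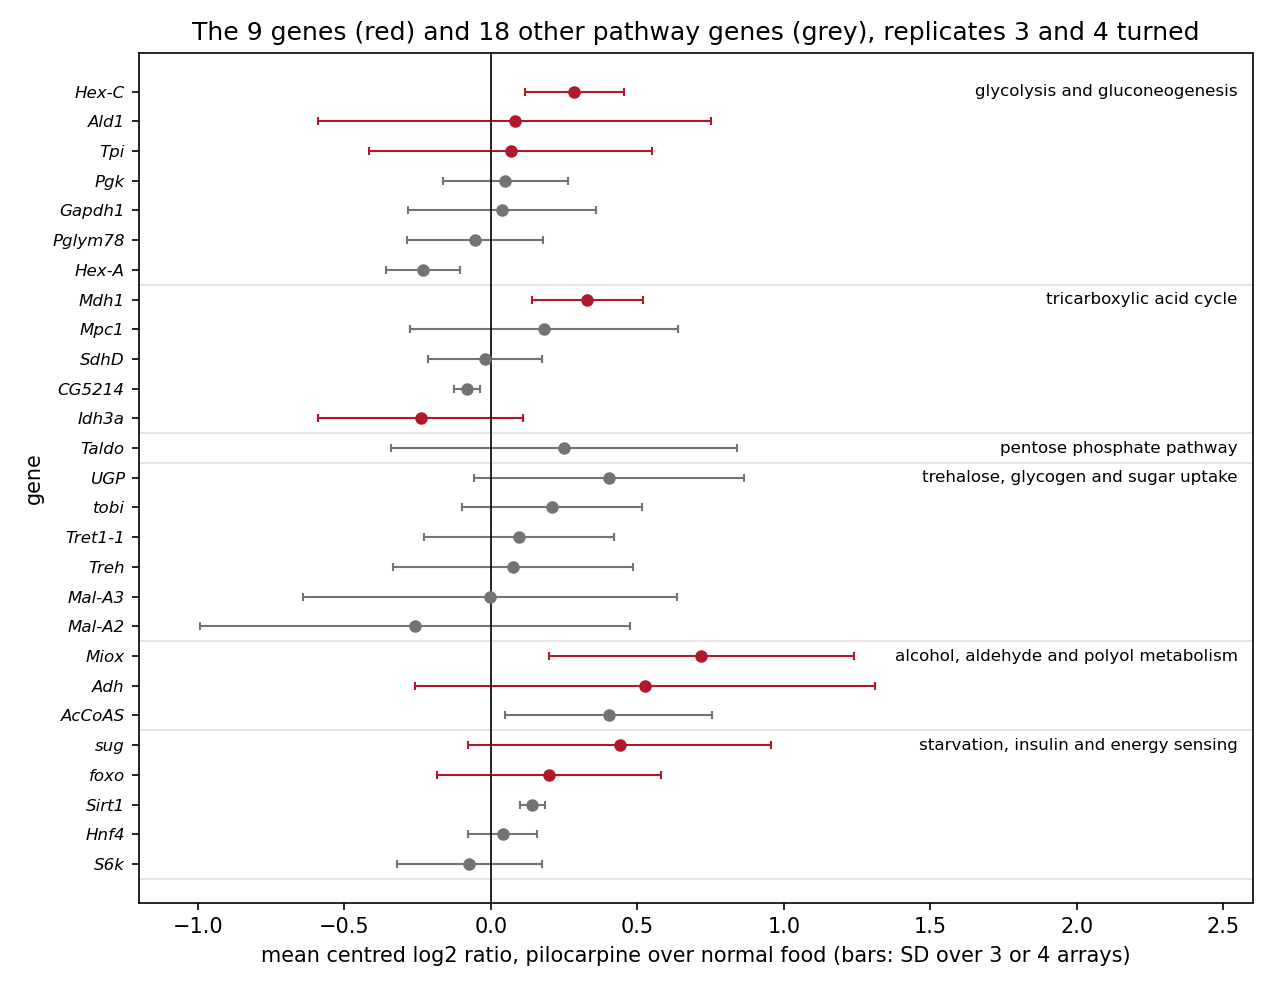
Mean centred log2 ratio of pilocarpine over normal food in the red-over-green reading (horizontal axis, bars: SD over 3 or 4 arrays) for the 9 genes in red and 18 other measured genes of the same pathways in grey, grouped by list down the vertical axis. The 3 genes of alcohol, aldehyde and polyol metabolism lie between 0.40 and 0.72, and the 7 glycolytic genes between -0.23 and 0.29.

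Adh is strongly expressed in the fat body of flies. Of 14 fat body markers with a probe 8 were measured, and 6 of these were positive in the red-over-green reading, with a median of 0.14, and 1 was positive in the other, with a median of -0.27. On replicates 1 to 4 the list's median centred ratio as deposited was -0.19, 0.75, -0.36 and -0.50, over 8, 3, 8 and 8 genes. Single markers went different ways: on replicate 1 Cyp4d21 was at -1.22 and Desat1 at 0.63, and on replicate 4 Lsp2 was at 0.32 and Desat1 at -1.35. Its highest gene in the red-over-green reading, the lipoprotein gene apolpp, was one of the 2 genes that passed (1.45 ± 0.67, SD, n = 4; limma adjusted p = 0.0274), at 0.48, 1.94, -1.53 and -1.85 on replicates 1 to 4 as deposited. Its treated-over-untreated mean was -0.24 ± 1.78 (SD, n = 4; limma adjusted p = 0.942). The desaturase gene Desat1 was at 0.78 ± 0.41 in the red-over-green reading (SD, n = 4; limma adjusted p = 0.177), the storage protein gene Lsp2 at 0.00 and the lowest, Cyp4d21, at -0.12. The part of fat body content in the values of the 9 genes was not tested. The 7 muscle genes had a median of -0.12 in the red-over-green reading, between -0.41 for Mlc1 and 0.09 for Act79B. The 3 gut genes had one of 0.06, between -0.07 for Jon66Cii and 0.10 for Jon25Biii. The 4 photoreceptor genes had one of -0.01, between -0.06 for inaD and 0.24 for Arr1. The 2 glial genes, Gs2 and loco, were both at 0.09.

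The genes whose 4 centred ratios lay nearest to those of each gene on all 4 arrays were found by Euclidean distance among 747 genes, a measure that is the same in both readings. For Miox the nearest was the immune-induced peptide gene BomT3, at a distance of 0.21, and then Paics, an enzyme of purine synthesis, at 0.53, where the median distance was 1.79. BomT3 was at 0.15, 1.25, -0.58 and -1.23 on replicates 1 to 4, which traces Miox array by array. For Ald1 they were trus at 0.15 and Tctp at 0.47. For Mdh1 they were Haspin at 0.19 and CycY at 0.22, for Idh3a lbk at 0.22 and Fie at 0.24, and for foxo Rab2 at 0.18 and CASK at 0.22. Adh had no close neighbour, with CG3036 and GCS1 both at 0.76 against a median distance of 1.79. With 4 values a gene and 747 candidates, such nearness is a description of these arrays only.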

How the data were processed

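Quantification in GenePix Pro 6.0 and normalization of ratios in Acuity 4.0, with filters on the quality of spots, were the authors' steps, per the labels and design text. What was deposited is 1 normalized log2 ratio per spot and array, empty where a spot was filtered out; no intensities were used here. The base was read from the values: 11 cells hold exactly 16.61, the log2 of 100000, and were dropped.

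Adjacent spots of a probe were averaged, each array was centred on the median of its probes with a value (3178, 2310, 3221 and 2831 on replicates 1 to 4), and probes were averaged by gene through GEO's platform annotation and current NCBI symbols (1510 probes with 1 gene, 13 with several, 1713 with none; 29 IDs had no match and kept the listed symbol). Genes on at least 3 arrays were fitted with limma 3.58.1 in R 4.3.3 (lmFit, eBayes, two-sided, Benjamini-Hochberg over 1444 genes, threshold 0.05) in both readings. The fit was tested on simulated data only with shifts larger than any mean of the 9 genes, so not at the size of those means. The precision is limited by the number of arrays, 4. The study's SAM 3.0 was not rerun.

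The 9 genes and all lists were chosen with earlier results of these data known. Other genes named are those of a pathway or marker list that passed or had its highest or lowest red-over-green mean (Lsp2, Desat1, Hnf4, trpl and inaC were added after their values were seen), and the 2 nearest genes of each gene. Alternatives covered centring, scaling, probes, spots, array minimum, ceiling cells, dye, variance and each replicate left out.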

Additional observations from a re-analysis of the deposited data

How the results depend on the processing

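Across the alternatives 227 values of the 9 genes kept their sign and their side of the threshold, 9 changed sign and 4 came to pass. Many of the 227 could not change sign. Single probes, the array minimum, the genes on all 4 arrays, robust variance and the dye term left each mean as it was. So did leaving out an array on which a gene had no value. All 9 changes of sign came from leaving out 1 replicate. In the red-over-green reading, leaving out replicates gave -0.24 to 0.26 for Ald1 and -0.21 to 0.23 for Tpi. In the treated-over-untreated reading the ranges were -0.29 to 0.08 for Hex-C, -0.39 to 0.05 for Tpi, -0.26 to 0.09 for Idh3a, -0.64 to 0.05 for Adh, -0.48 to 0.29 for Miox and -0.52 to 0.19 for sug. Where a gene lacks an array, these rest on 2 arrays. Single values were -0.24 for Ald1 and -0.21 for Tpi (red over green), and, unturned, 0.077 for Hex-C, 0.046 for Tpi, 0.089 for Idh3a, 0.050 for Adh, 0.030 and 0.29 for Miox and 0.19 for sug. Miox passed in the red-over-green reading (0.82, limma adjusted p = 0.00942) without replicate 3 and under no other alternative. The causes were not tested. Without centring, Ald1 (-0.76, limma adjusted p = 0.00697), Adh (-0.71, 0.0141) and foxo (-0.64, 0.0171) passed in the treated-over-untreated reading, where 237 genes did, all lower, since the negative array medians then stay in the values. The red-over-green count of 2 genes was 1 over the 748 genes on all 4 arrays, 4 over the same 748 genes with a second term for the dye orientation, 1 with both spots present, 0 over single probes, and 0 to 18 without 1 replicate (5 without replicate 1, 0 without replicate 2, 18 without replicate 3, 0 without replicate 4). Each array sets a treated pool against the untreated pool of its set, so the fits are paired by construction.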
